A study of Homo sapiens with 3 samples.

Results

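MYCN-negative cells were those of the TAE684-resistant Kelly libraries in which not 1 molecule of MYCN RNA was counted. There were 140 of them among 5836 cells of the intermediate resistant library and 135 among 5843 cells of the fully resistant library, 275 of 11679 resistant cells and of 16586 cells in the whole series. A cell was counted if it held at least 9500 unique molecular identifiers (UMIs, each standing for 1 captured RNA molecule), at least 500 genes and at most 20% UMIs of mitochondrially encoded genes. Within each library the MYCN-negative cells were set against the MYCN-positive cells, those with at least 5 MYCN UMIs (3766 and 4005 cells), and cells with 1 to 4 MYCN UMIs entered neither group. Each cell was then thinned at random to 9500 UMIs, and MYCN itself was left out of every comparison. The MYCN counts that chose the cells are given below as a description only.

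Kelly is an established human neuroblastoma cell line with an amplified MYCN gene and an activating ALK mutation, and TAE684 is an inhibitor of the ALK receptor tyrosine kinase. The study profiled single cells of 3 states of this line, each as 1 library: sensitive cells kept in the vehicle DMSO, intermediate resistant cells kept in TAE684 at 500 nM, and fully resistant cells kept in TAE684 at 1 µM. All 3 states are 1 cell line in culture, and the labels do not say whether a resistant state came from 1 clone or many. With 1 library per state, cells were not replicates and no p-value was computed. Intervals are exact 95% intervals for counting error alone, and differences were read by size.

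MYCN is a transcription factor of the MYC family that pairs with MAX and binds E-box sequences in promoters. In neuroblastoma its amplification is a mark of high-risk disease, and it is known for raising genes of ribosome production, nucleotide and polyamine synthesis and cell cycle entry, and for lowering genes of differentiation and cell adhesion. MYCNOS is transcribed from the opposite strand of the same locus, lies within the amplified segment and shares sequence positions with the start of MYCN.

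The 250 bases before the start of each of these 2 RNAs are printed because MYCN chose the cells and MYCNOS had the lowest ratio in the intermediate resistant library among genes with at least 50 CPM (a gene's UMIs scaled to a common total of UMIs per group). They are the RefSeq sequences of build GRCh38.p14, whereas the counts were made on hg19, so the positions serve for orientation only. The MYCN window is chr2:15940300-15940549 on the plus strand. The MYCNOS window is chr2:15941686-15941935 on the minus strand, in intron 1 of MYCN by GENCODE 29, and ends next to a MYCNOS start 1135 bases downstream of the MYCN start. Capitals mark matches to TTTNNCGC, the half-site of the cell cycle factors E2F, searched on both strands together with the E-box CACGTG.
MYCN: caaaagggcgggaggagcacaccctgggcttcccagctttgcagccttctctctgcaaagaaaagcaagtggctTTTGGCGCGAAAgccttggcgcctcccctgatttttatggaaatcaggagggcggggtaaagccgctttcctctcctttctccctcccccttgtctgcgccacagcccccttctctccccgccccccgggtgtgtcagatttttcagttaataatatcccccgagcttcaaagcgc
MYCNOS: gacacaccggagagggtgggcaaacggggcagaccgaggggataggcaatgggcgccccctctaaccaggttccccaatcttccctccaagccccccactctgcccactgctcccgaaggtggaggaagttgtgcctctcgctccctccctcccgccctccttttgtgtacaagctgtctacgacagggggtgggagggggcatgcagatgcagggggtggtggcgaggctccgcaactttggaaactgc
The MYCN window held 2 overlapping E2F matches, 176 and 172 bases before the start, and no E-box. The MYCNOS window held neither motif. Of all 35116 promoter windows of this length in the reference, 5.92% held the E2F half-site and 6.34% the E-box.

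MYCN-negative cells made up 2.40% of the intermediate resistant library (exact binomial interval 2.02 to 2.82%) and 2.31% of the fully resistant library (1.94 to 2.73%). In the sensitive library 5 of 4907 cells, or 0.102%, had none. The median cell held 6 MYCN UMIs in both resistant libraries and 19 in the sensitive one. The distribution of MYCN counts had no separate peak at 0: in the intermediate library 140 cells had 0 UMIs and 314 had 1, and in the fully resistant library 135 had 0 and 247 had 1. Just outside and inside the limit of the positive cells, 595 cells had 4 and 567 had 5 UMIs in the intermediate library, and 530 and 535 in the fully resistant one. If every cell of a library carried MYCN at the library's mean share, counting alone at these depths would give 16.2 cells with 0 in the intermediate library and 10.3 in the fully resistant one. Free RNA, read from barcodes with at most 100 UMIs, contained MYCN at 400 and 441 CPM in the 2 resistant libraries, close to the 412 and 444 CPM of the cells.

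**Figure D1:**
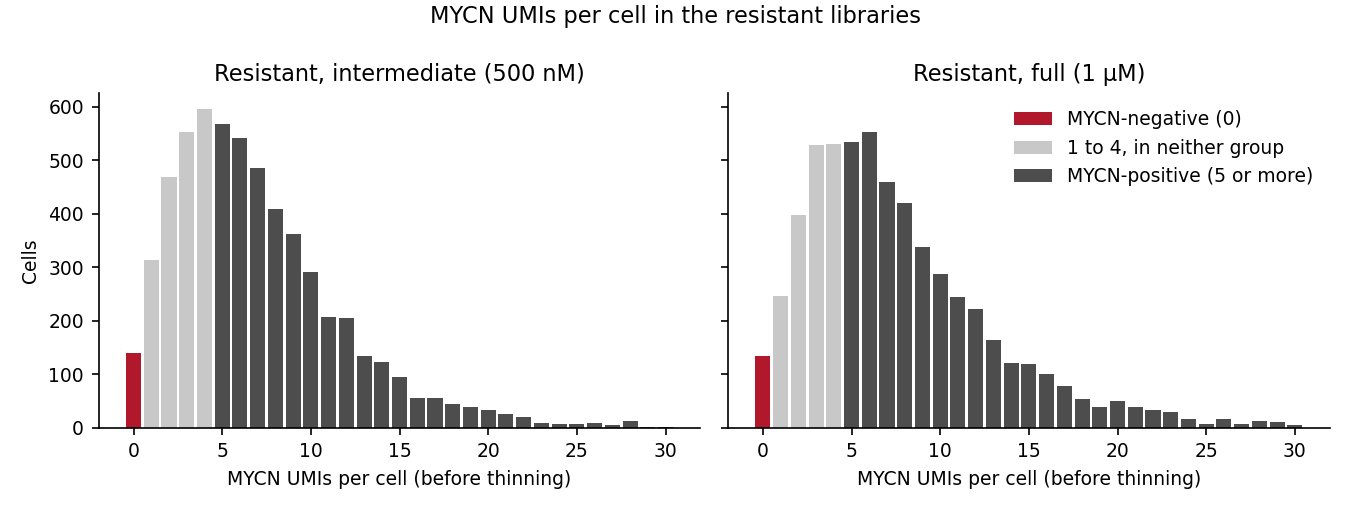
Cells of each resistant library (y axis) by their MYCN UMIs before thinning (x axis, shown to 30). The red bars are the 140 and 135 MYCN-negative cells, grey bars the cells in neither group and dark bars the MYCN-positive cells; the red bar is the low end of 1 continuous distribution.

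The MYCN-negative cells were shallower before thinning. Their median was 14421.5 UMIs against 16203.5 in MYCN-positive cells of the intermediate library, and 14054 against 17203 in the fully resistant one. When the minimum was raised to 12000 UMIs, the MYCN-negative share was 1.99% and 1.79%. After thinning, the median number of genes detected was 2565.5 against 2561 in the intermediate library and 2624 against 2745 in the fully resistant library. The median share of mitochondrially encoded UMIs was 5.0% against 5.16% and 6.72% against 6.64%. A few droplet barcodes occurred in 2 libraries (46 between the resistant libraries), of which 0 and 1 belonged to MYCN-negative cells.

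The cells carried the markers of adrenergic neuroblastoma. All 10 such markers were measured in both groups, among them the lineage transcription factors PHOX2A and HAND2 and the catecholamine enzyme TH. PHOX2A stood at 500 CPM in MYCN-negative and 461 CPM in MYCN-positive cells of the intermediate library, and at 342 and 290 CPM in the fully resistant one. HAND2 stood at 436 against 422 and at 339 against 281 CPM. Of the 10 markers 9 lay above 0 in the fully resistant library, with a median log2 ratio of 0.26 beside -0.06 over all genes and a summed ratio of 1.2 (1.16 to 1.24), and 1, STMN2, was past 1.5-fold. The intermediate library had 6 of 10 above 0 and a summed ratio of 0.97 (0.94 to 0.99). Of markers of other cell types, in MYCN-negative cells the 7 leukocyte markers summed to 0.752 and 2.34 CPM, with 6 of the 7 at 0 in each library, and the 6 epithelial markers to 13.5 and 1.56 CPM. The 4 endothelial markers in the table summed to 0.752 and 48.3 CPM, beside 0.839 and 37.2 CPM in MYCN-positive cells, and KDR and CDH5 were at 0 in MYCN-negative cells. In the fully resistant library 1 of the 4 reached 25 CPM, with a log2 ratio of 0.40. The 6 Schwann cell markers summed to 7.52 against 5.82 CPM and, in the fully resistant library, to 76.4 against 95.9 CPM, with SOX10 at 0 in MYCN-negative cells. Another of the 6, 1 marker, reached 25 CPM in the fully resistant library, with a log2 ratio of -0.28. The part of these markers in the results was not tested. The 10 mesenchymal markers summed to 42.9 CPM against 44.7 CPM in the intermediate library and to 65.5 CPM against 42.2 CPM in the fully resistant one, and none of them reached 25 CPM.

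In the intermediate library, 92 of 4144 genes with at least 25 CPM in the higher group were at least 1.5-fold higher in MYCN-negative cells (2.22%) and 68 were at least 1.5-fold lower (1.64%). The fully resistant library gave 56 of 4402 genes higher (1.27%) and 140 lower (3.18%). There the median gene lay at -0.06 on the log2 scale, and centring on it gave 72 higher and 90 lower. Single calls were weak, since a second random thinning returned 49 of the 92 and 31 of the 68 genes in the intermediate library, and 34 of the 56 and 68 of the 140 in the fully resistant library. The 2 libraries shared few genes. Among 3849 genes measured in both, 1 was past the fold upwards in both (0.026%), or 1.59% of the 63 in the intermediate and 4% of the 25 in the fully resistant library. Downwards 5 were past it in both (0.13%), 9.62% of 52 and 4.67% of 107. A further 13 of the 3849 genes were higher in the intermediate and lower in the fully resistant library, and none went the other way. Of these 13, 5 were on the G2 and M phase list, which held 44 of the 4144 genes measured in the intermediate library. Across these 3849 genes the log2 ratios of the 2 libraries had a Pearson correlation of 0.18, as a description, since genes are not independent.

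**Figure D2:**
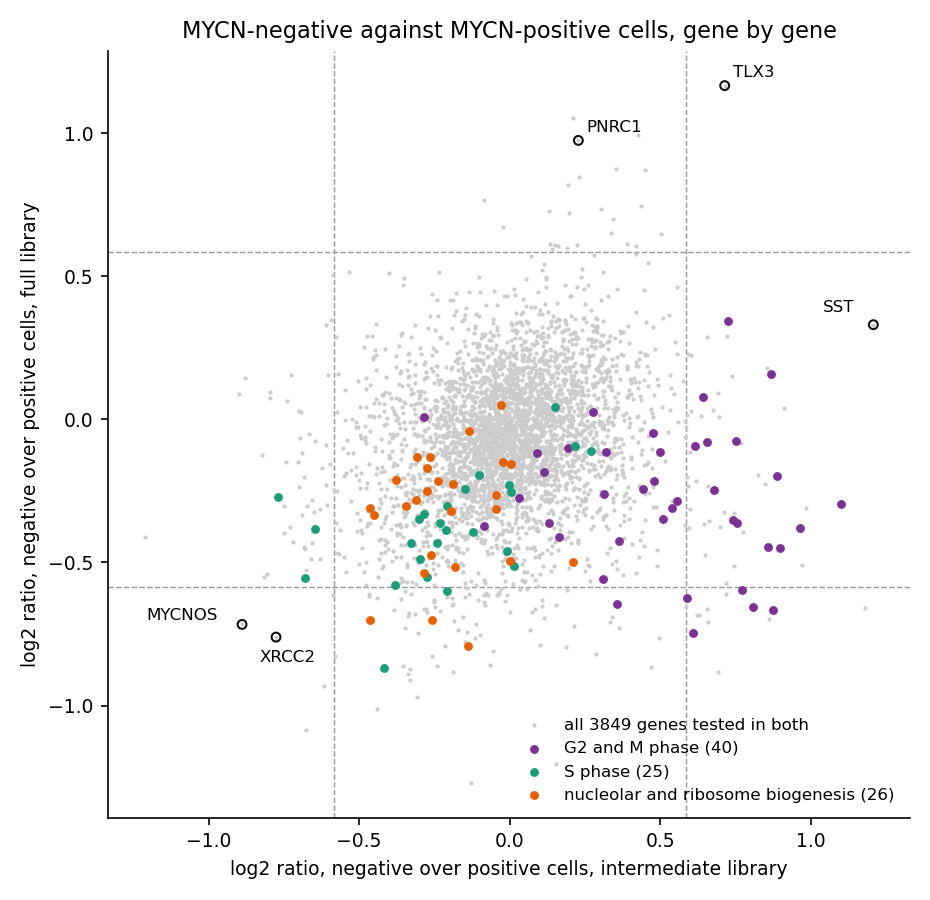
Each point is 1 of 3849 genes, placed by its log2 ratio of MYCN-negative over MYCN-positive cells in the intermediate (x axis) and the fully resistant library (y axis); dashed lines mark 1.5-fold. Ribosome biogenesis and S phase genes gather at the lower left, and G2 and M phase genes spread to the lower right, higher in 1 library and lower in the other.

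MYCNOS (ENSG00000233718) was the most abundant of the genes lower in both libraries. It stood at 78.9 CPM in MYCN-negative and 146 CPM in MYCN-positive cells of the intermediate library, a ratio of 0.54 (0.44 to 0.66), and at 75.6 against 124 CPM in the fully resistant one, a ratio of 0.61 (0.49 to 0.74). Per cell, MYCN-negative cells held 0 to 6 MYCNOS UMIs with a median of 0 in the intermediate library, and MYCN-positive cells 0 to 11 with a median of 1. The ranges in the fully resistant library were 0 to 4 and 0 to 10, with the same medians. Single cells of the 2 groups overlapped widely, and the difference lies in the sums. MYCNOS was lower within each called cell cycle phase: the G1, S and G2M ratios were 0.42, 0.67 and 0.56 in the intermediate and 0.57, 0.65 and 0.60 in the fully resistant library. Its ratio in the fully resistant library was 0.74 with another random thinning and 0.71 without thinning, short of the 1.5-fold limit. With groups from MYCN counted after thinning it was 0.76, also short of the limit. Whether counting used strand is not given in the sources used here, so reads of MYCN and MYCNOS cannot be told apart where they share positions.

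Other neighbours of MYCN on the short arm of chromosome 2 were mixed in the intermediate library and mostly lower in the fully resistant one, by less than 1.5-fold. With MYCNOS included, 3 of 5 measured genes lay below 0 in the intermediate library (median -0.14, summed ratio 0.90, 0.85 to 0.96) and 5 of 6 in the fully resistant one (median -0.31, summed ratio 0.80, 0.75 to 0.85). DDX1, an RNA helicase gene often amplified together with MYCN, stood at 137 against 109 CPM in the intermediate library, a ratio of 1.26 (1.08 to 1.46), and at 141 against 155 CPM in the fully resistant one, a ratio of 0.91 (0.78 to 1.06). NBAS was under 30 CPM in every group, with ratios of 0.68 (0.38 to 1.13) and 1.32 (0.92 to 1.86). ODC1, which encodes the first enzyme of polyamine synthesis, had ratios of 0.91 (0.84 to 0.99) and 0.81 (0.74 to 0.87). Of the measured genes of this region MYCNOS was past the fold in each library and no other was. MAX, the partner of MYCN, had 31.6 against 38.7 CPM and 28.9 against 37.7 CPM, with intervals that included 1 in both libraries. In the list of MYC network partners 1 of 8 genes was higher and none lower in the intermediate library, and 1 of 9 was lower in the fully resistant one. Over all genes 2.22% were higher in the former and 3.18% lower in the latter.

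The other genes past the fold in both libraries were scarcer, and all but AKAP1 were named after their values were seen. AKAP1, an anchor of protein kinase A at mitochondria, stood at 31.6 against 50.5 CPM (ratio 0.63) and at 19.5 against 41.4 CPM (ratio 0.47). SLC1A5, the glutamine transporter, had 23.3 against 35.7 and 17.9 against 34.2 CPM, ratios of 0.65 and 0.52. XRCC2, a factor of homologous recombination, had ratios of 0.58 and 0.59, and NR2C2AP 0.67 and 0.65. TLX3, a homeobox transcription factor, was the gene higher in both, at 43.6 against 26.6 CPM (ratio 1.64, 1.24 to 2.14) and 32.7 against 14.6 CPM (ratio 2.24, 1.60 to 3.07). In the fully resistant library TLX3 reached the 25 CPM limit only in MYCN-negative cells. AKAP1, SLC1A5, XRCC2 and NR2C2AP reached it there only in MYCN-positive cells. Of 13 alternative ways of processing, AKAP1 stayed past the fold in both libraries in 11, MYCNOS in 10, TLX3 in 9, XRCC2 and SLC1A5 in 8 each and NR2C2AP in 3. With groups from MYCN counted after thinning, none of the lower genes was past it in both. Among the promoter windows of these genes 1 held an E-box, window 2 of the 3 windows of SLC1A5, 50 bases before that start. Over all measured genes found in the reference 13.0% held an E-box in any window.

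Genes of ribosome production were lower on the whole in MYCN-negative cells, by small amounts. Of the 28 measured nucleolar and ribosome biogenesis genes, 25 lay below 0 in the intermediate and 26 in the fully resistant library, with medians of -0.25 and -0.29 on the log2 scale beside medians over all genes of 0.0006 and -0.06. None was past 1.5-fold upwards in either, and 1 and 3 were past it downwards, where 1.64% and 3.18% of all genes were. Their summed level was 4752 against 5254 CPM (ratio 0.90, 0.88 to 0.93) and 4364 against 4983 CPM (ratio 0.88, 0.85 to 0.90). NOP16, a nucleolar protein of the large ribosomal subunit, stood at 63.2 against 69.6 CPM in the intermediate library and at 37.4 against 64.7 CPM in the fully resistant one, ratios of 0.91 and 0.58. PPAN, also of large-subunit assembly, had ratios of 0.72 and 0.62, and the nucleolar LYAR 0.84 and 0.62. The summed ratio was nearest to 1 in cycling cells: in G1, S and G2M it was 0.82, 0.95 and 0.97 in the intermediate library, and 0.81, 0.94 and 0.92 in the fully resistant one. Cytosolic ribosomal protein genes, the products that these factors assemble, had medians of 0.00 and 0.08, and none of the 78 measured was past the fold.

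Nucleotide and polyamine synthesis genes followed in the fully resistant library. There 20 of 23 measured genes lay below 0, with a median of -0.31 and 3 past the fold downwards: AMD1, of polyamine synthesis, with a ratio of 0.60 (0.44 to 0.81), PPAT, the entry enzyme of purine synthesis, with 0.58 (0.38 to 0.84), and MTHFD2, a mitochondrial folate enzyme, with 0.63 (0.53 to 0.76). In the intermediate library 14 of 21 lay below 0, the median was -0.14 and none was past the fold. AMD1, PPAT and MTHFD2 had ratios of 0.78, 0.86 and 0.84 there. In the fully resistant library 3.18% of all genes were past the fold downwards. Of 17 translation factors measured, none was past the fold in the intermediate library and 1 in the fully resistant one, EIF4EBP1, which encodes a repressor of cap-dependent translation. It stood at 171 against 232 CPM in the intermediate library and at 133 against 205 CPM in the fully resistant one, ratios of 0.74 and 0.65. In the latter it was short of the limit without thinning (0.72), with phase weighting (0.68) and with another random thinning (0.675). With groups from MYCN counted after thinning its ratio there was 0.86. The summed ratio of the translation factors was 1.02 (1.01 to 1.03) in the intermediate and 1.11 (1.09 to 1.12) in the fully resistant library. E2F1, a transcription factor of cell cycle entry, had ratios of 0.72 (0.58 to 0.87) and 0.69 (0.57 to 0.84), just short of the limit in both.

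**Figure D3:**
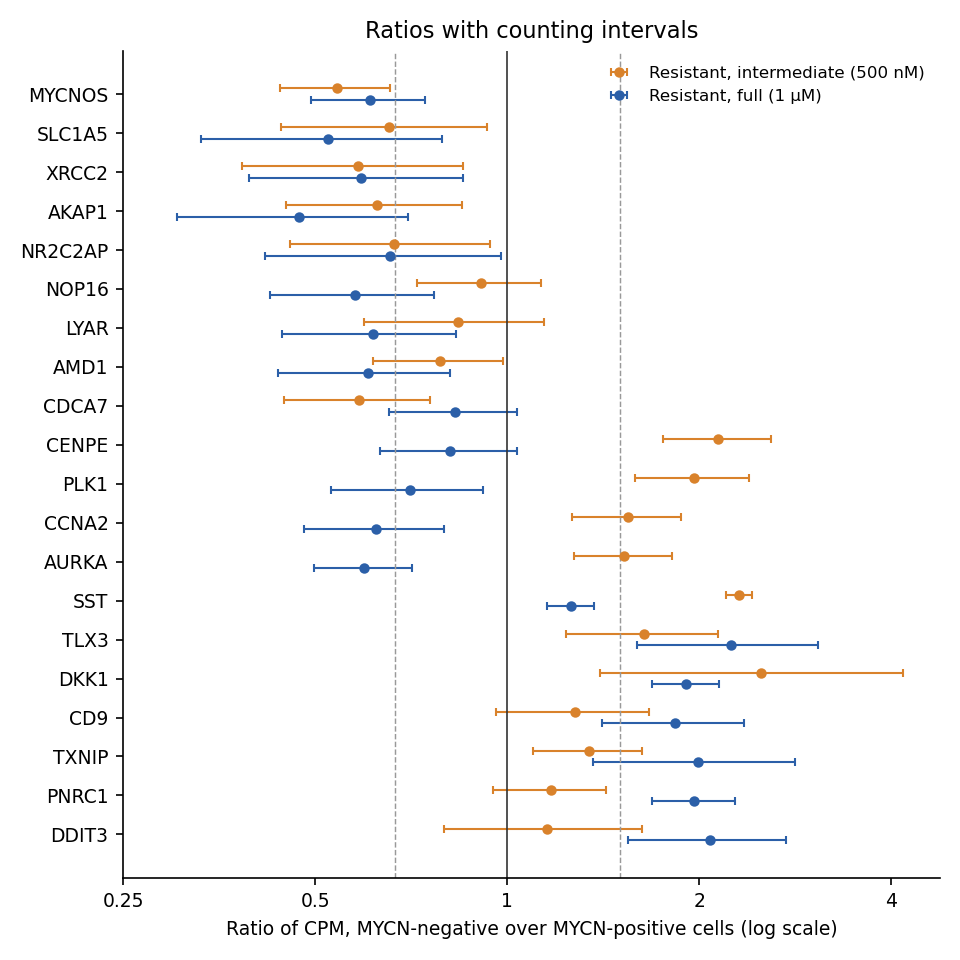
Ratio of CPM in MYCN-negative over MYCN-positive cells (x axis, log scale) for 20 named genes in the intermediate (orange) and fully resistant library (blue), with exact 95% counting intervals; the solid line is a ratio of 1 and dashed lines mark 1.5-fold. MYCNOS and AKAP1 lie left of 1 in both libraries, the mitotic genes CENPE, PLK1, CCNA2 and AURKA lie right of 1 in the intermediate and left of 1 in the fully resistant library.

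Cell cycle state differed between the groups, and not in the same way in the 2 libraries. In the intermediate library 54.3% of MYCN-negative cells (45.7 to 62.7%) were called G2M from their G2 and M phase genes, against 34.9% of MYCN-positive cells (33.4 to 36.5%), and 25% against 44.0% were called S. In the fully resistant library G2M calls were 38.5% (30.3 to 47.3%) against 43.9% (42.3 to 45.4%), intervals that overlap, S calls 25.2% against 35.5%, and G1 calls 36.3% (28.2 to 45.0%) against 20.7% (19.4 to 22.0%). MYCN-negative cells were thus 3.29% of G2M cells and 1.5% of S cells in the intermediate library, and 3.64% of G1 cells and 1.66% of S cells in the fully resistant one. MYCN itself stood at 472 CPM in G1, 461 CPM in S and 341 CPM in G2M over all cells of the intermediate library, and at 422, 439 and 458 CPM in the fully resistant library. Median depth before thinning was higher in G2M than in G1 cells of both libraries, at 17480 against 14899 and 17817 against 15051 UMIs. The part of free RNA in the phase calls was not tested.

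**Figure D4:**
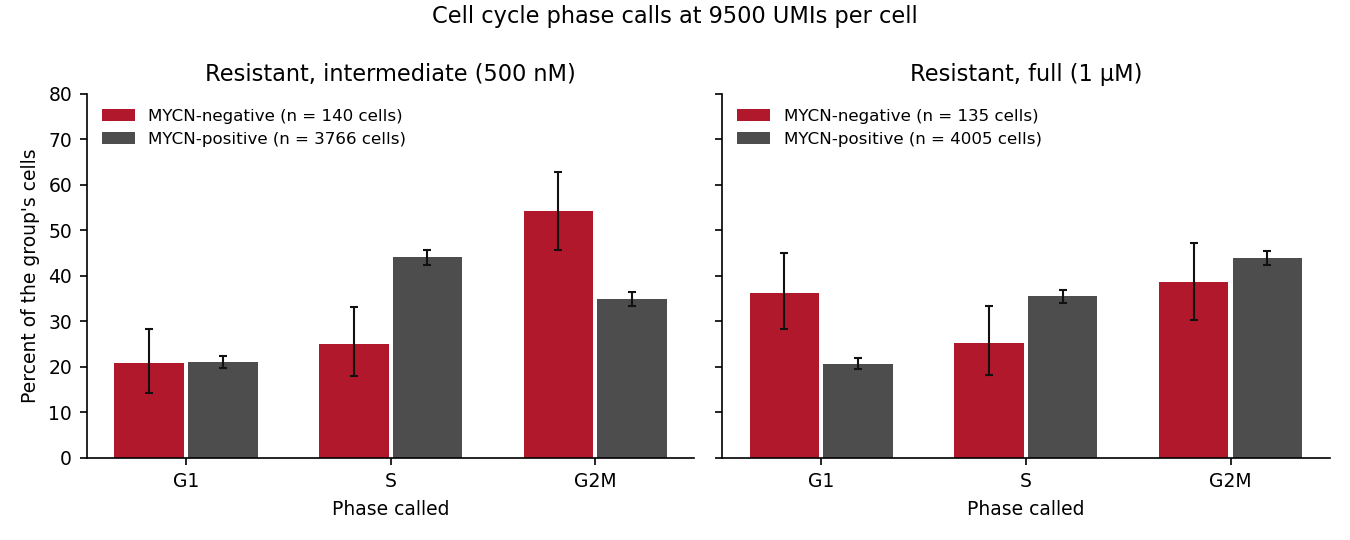
Percent of MYCN-negative (red) and MYCN-positive cells (dark) called G1, S or G2M in each resistant library, after thinning to 9500 UMIs; error bars are exact 95% binomial intervals over cells. MYCN-negative cells exceed MYCN-positive cells in G2M (54.3% against 34.9%) in the intermediate library and in G1 (36.3% against 20.7%) in the fully resistant library.

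The G2 and M phase genes, from which those calls were made in part, went opposite ways. In the intermediate library 23 of 44 measured genes were at least 1.5-fold higher in MYCN-negative cells and none lower, with a median of 0.60. In the fully resistant library none of 43 was higher and 7 were lower, with a median of -0.29. Among all genes 2.22% were higher in the intermediate and 3.18% lower in the fully resistant library. CENPE, a kinesin of the kinetochore, stood at 86.5 against 40.4 CPM in the intermediate library, a ratio of 2.14 (1.76 to 2.59), and at 53.8 against 66.0 CPM in the fully resistant one, a ratio of 0.81 (0.63 to 1.03). PLK1, a mitotic kinase, had 77.4 against 39.5 CPM (ratio 1.96) and 43.7 against 62.1 CPM (ratio 0.70). AURKA, the kinase of the spindle poles, was past the fold both ways, at 102 against 67.1 CPM (ratio 1.52, 1.27 to 1.81) and 101 against 169 CPM (ratio 0.60, 0.50 to 0.71). CCNA2, or cyclin A, which is on the cyclin list, had 82.7 against 53.5 CPM (ratio 1.55) and 50.7 against 81.3 CPM (ratio 0.62). CCNB2, a B-type cyclin, was above 1 in both, with ratios of 1.65 (1.35 to 2.01) and 1.27 (1.03 to 1.55). When MYCN-positive cells were weighted to the phase shares of the MYCN-negative cells, the medians were 0.20 and -0.08. Weighted to their UMI totals, they were 0.61 and -0.16. Grouped by MYCN counted after thinning, they were 0.96 and -0.05.

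S phase genes lay below 0 for the most part in both libraries, by small amounts, and this depended on how the groups were made. Of the measured genes 20 of 25 lay below 0 in the intermediate library and 26 of 27 in the fully resistant one, with medians of -0.21 and -0.36, and 3 and 2 were past the fold downwards, where 1.64% and 3.18% of all genes were. With groups formed from MYCN counted after thinning the medians were -0.016 and -0.0173. UNG, which removes uracil from DNA, had ratios of 0.62 (0.47 to 0.81) and 0.68 (0.52 to 0.87). CDCA7 stood at 45.1 against 77.0 CPM in the intermediate library, a ratio of 0.59, and had a ratio of 0.83 (0.65 to 1.04) in the fully resistant one. CDC6, a loader of the replicative helicase, had 0.64 and 0.77. ATAD2, a bromodomain protein of replicating chromatin, had 0.75 (0.56 to 0.98) and 0.55 (0.39 to 0.74), and 0.95 and 0.65 with another random thinning. Within cells called S the summed ratio was 1.02 and 1.00, and the phase-weighted medians were -0.07 and -0.10. The phase calls were made in part from these same genes, so values near no difference are partly built into both. Half-sites for E2F occurred in the promoter windows of 15 of 31 S phase genes found in the reference, or 48.4%, against 13.2% of measured genes.

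Over the whole range of MYCN some levels changed step by step, and some scarcer genes had their highest or lowest level in the MYCN-negative cells. MYCNOS increased with each step of MYCN UMIs, from 78.9 CPM in cells with 0 to 94.9 in cells with 1 to 2, 109 with 3 to 4, 133 with 5 to 9, 162 with 10 to 19 and 215 CPM with 20 or more in the intermediate library. The same steps gave 75.6, 106, 113, 121, 128 and 139 CPM in the fully resistant library. The share of cells called G2M went down over these steps from 54.3% to 29.3% in the intermediate library, and went from 38.5% to 62.0% in the fully resistant one, where it was 37.5 to 38.8% in the first 4 steps. DKK1, a secreted inhibitor of Wnt signalling, went down at every step of the fully resistant library, from 223 to 64.6 CPM. TXNIP in that library was at 26.5 CPM in cells with 0 MYCN UMIs and between 12.1 and 13.5 CPM in every other step. ATAD2 there was at 33.5 CPM (24.3 to 45.2) in MYCN-negative cells and between 49.1 and 62.4 CPM in the others. The interval at 20 or more MYCN UMIs, 40.9 to 58.6 CPM, overlapped that of the MYCN-negative cells. In the intermediate library ATAD2 was at 42.1 CPM with 0 and 42.9 CPM with 20 or more. With groups from MYCN counted after thinning its ratios were 1.13 in the intermediate and 0.87 in the fully resistant library. STMN2 in the fully resistant library had no steady direction, at 137, 99.4, 68.8, 74.3, 75 and 100.3 CPM. DKK1 in the intermediate library was at 12 CPM and then between 3.37 and 5.81 CPM, below the 25 CPM limit throughout. At most 7 MYCN-negative cells carried it there, and the highest held 9 UMIs. With groups from MYCN counted after thinning its ratio in that library was 0.92. Median depth also increased over the steps, from 14421.5 to 18776 and from 14054 to 20474.5 UMIs, and its part in these trends was not tested beyond the weighting above.

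**Figure D5:**
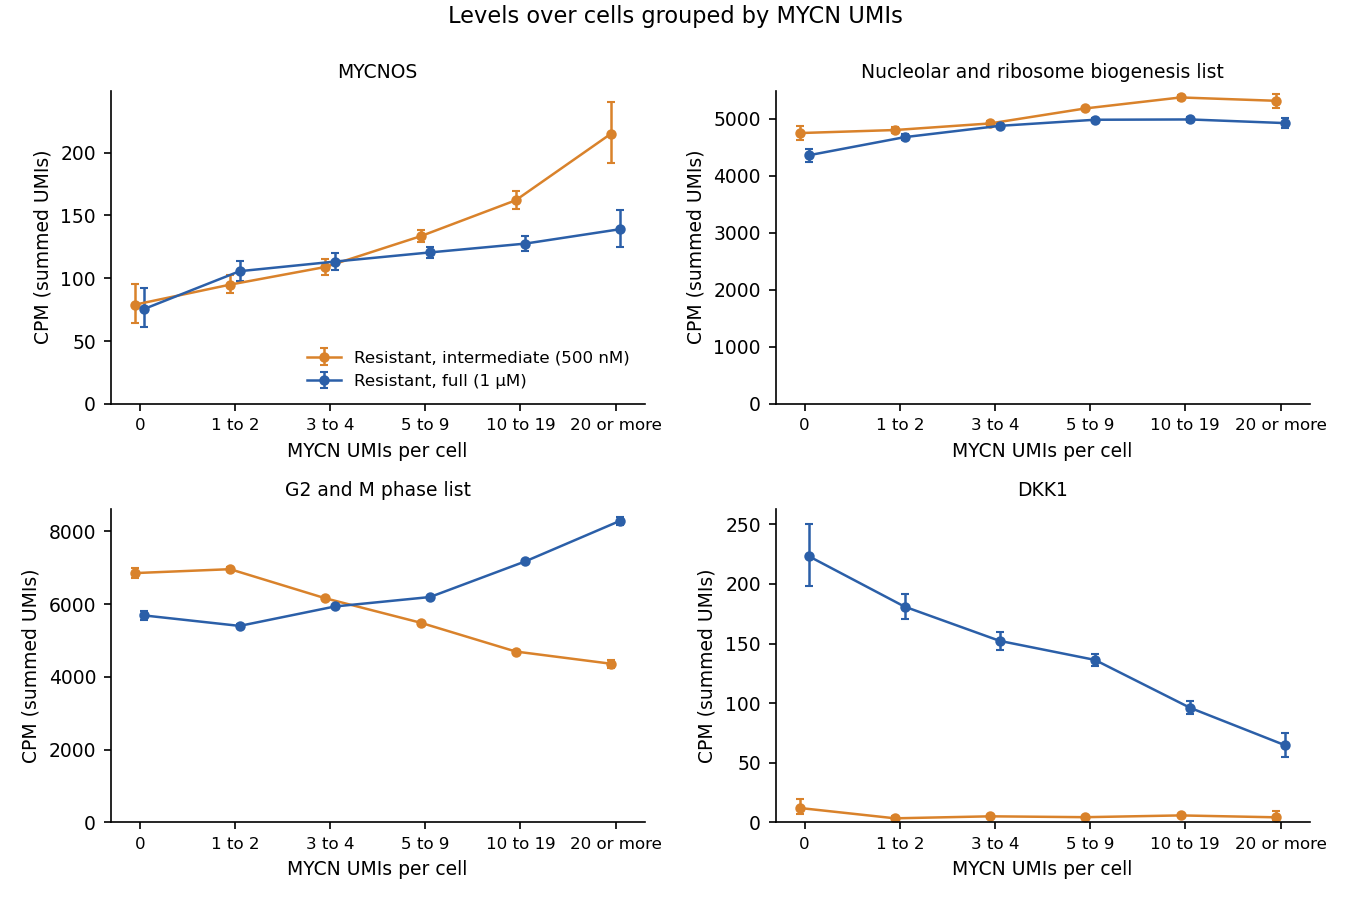
Level in CPM (y axes, from 0) over cells grouped by their MYCN UMIs before thinning (x axes) in the intermediate (orange) and fully resistant library (blue), for MYCNOS, DKK1 and the summed G2 and M phase and ribosome biogenesis lists; error bars are exact 95% counting intervals. MYCNOS increases from left to right in both libraries, the G2 and M phase sum runs in opposite directions, and DKK1 decreases in the fully resistant library.

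SST, the neuropeptide somatostatin, had the highest ratio among the named genes with at least 50 CPM in the intermediate library, and a few cells carried much of it. It stood at 1361 CPM in MYCN-negative and 590 CPM in MYCN-positive cells, a ratio of 2.31 (2.20 to 2.42). The median cell held 3 against 2 SST UMIs and the highest 311 against 189, and the 7 MYCN-negative cells with most SST held 59.8% of the group's SST UMIs. Without the 5% of cells highest in SST in each group the ratio was 1.44. In the fully resistant library the ratio was 1.26 (1.16 to 1.37), and 0.875 without those cells. Of the other 11 highest genes with at least 50 CPM in the intermediate library, 6 were on the G2 and M phase list. That list held 44 of the 4144 genes measured in that library at 25 CPM. The 11 had ratios from 1.75 for NDC80, of the kinetochore, to 2.14 for CENPE, with CDC20, CDK1, CDKN3 and NUSAP1 between them. Of the 12 highest genes 3 were on the same side in the fully resistant library, and none past the fold. The median log2 ratio over all genes there was -0.06.

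The 12 lowest genes of the intermediate library were all on the same side in the fully resistant one, and 2 of them, MYCNOS and AKAP1, past the fold there. The median over all genes of the fully resistant library was -0.06 on the log2 scale, so more genes lay below 0 there than above it. BAG1, a cochaperone of HSP70, stood at 90.2 against 152 CPM (ratio 0.59, 0.49 to 0.71) and at 54.6 against 67.3 CPM in the fully resistant library (ratio 0.81, 0.63 to 1.03). NUTF2, a nuclear import factor for RAN, had ratios of 0.61 and 0.90, and ORC6, of the origin recognition complex, 0.62 and 0.87. PPIF, the cyclophilin of mitochondria, had 0.63 and 0.69, both with intervals below 1. GAGE2A, a cancer-testis antigen, had 0.62 and 0.96. It belongs to a family of near-identical copies, so its count is uncertain.

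In the fully resistant library PNRC1, a nuclear receptor coactivator, led the named genes with at least 50 CPM; C11orf96, which has no descriptive name and was singled out after its values were seen, had 2.03. PNRC1 stood at 147 CPM in MYCN-negative and 75 CPM in MYCN-positive cells, a ratio of 1.96 (1.69 to 2.28). Its median was 1 against 0 UMIs per cell, and its ratio in the intermediate library was 1.17 (0.95 to 1.43). DKK1 followed at 223 against 117 CPM, a ratio of 1.90 (1.68 to 2.15), and was at 12 against 4.81 CPM in the intermediate library, below the 25 CPM limit. CD9, a membrane tetraspanin, had 51.5 against 28.1 CPM (ratio 1.83, 1.41 to 2.35), and STMN2, a microtubule regulator of growing neurites, 137 against 76.2 CPM (ratio 1.80, 1.54 to 2.10). STMN2 was at 1.16 with groups from MYCN counted after thinning and at 1.48 with UMI weighting, short of the limit. RGS4, an inhibitor of G protein signalling, had ratios of 1.76 in the fully resistant and 1.14 in the intermediate library, and DDIT4, a stress-induced inhibitor of mTORC1, 1.63 and 1.27. Of the 12 highest genes 11 were on the same side in the intermediate library, none past the fold. The median log2 ratio over all genes there was 0.0006. DKK1 and PNRC1 were high within G1 cells of the fully resistant library, with ratios of 2.07 (1.76 to 2.43) and 1.90 (1.56 to 2.29), and PNRC1 had 1.34 (0.98 to 1.80) within G2M cells. Weighted to phase shares, the ratios over all cells were 1.75 for DKK1 and 1.68 for PNRC1.

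The lowest genes of the fully resistant library included IVNS1ABP at 46.0 against 85.3 CPM (ratio 0.54, 0.41 to 0.70), beside 0.79 (0.58 to 1.06) in the intermediate library. Of the 12 lowest, 7 were on the same side in the intermediate library, where the median log2 ratio over all genes was 0.0006. Of these 1, MYCNOS, was past the fold. CDCA5, a protector of sister chromatid cohesion, had 0.60 and 1.05, and LSM10, of histone RNA processing, 0.61 and 0.88. SGOL2, a guardian of centromeric cohesion, had 0.62 and 1.81. With groups from MYCN counted after thinning CDCA5 lay above 1 in the fully resistant library.

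Genes that general texts name as lowered by MYCN were mostly too scarce to read. Of 17, 3 were measured in the intermediate library with none past the fold and a median of 0.35, and 6 in the fully resistant library, where TXNIP, CD9 and DKK1 were past it upwards and the median was 0.46. The share of all genes past it upwards in that library was 1.27%. TXNIP, an inhibitor of thioredoxin, stood at 81.2 against 60.5 CPM in the intermediate library (ratio 1.34, 1.10 to 1.63). It stood at 26.5 against 13.3 CPM in the fully resistant one (ratio 1.99, 1.36 to 2.82). There it reached the 25 CPM limit only in MYCN-negative cells, so its place among the 6 measured genes came from the group where it was high. TXNIP in the fully resistant library was short of the limit with groups from MYCN counted after thinning (1.09) and with UMI weighting (1.48). The summed level of the list was 241 against 199 CPM and 524 against 372 CPM. FYN, a kinase of the same list, had ratios of 0.98 and 1.04.

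The adrenergic core transcription factors had medians of 0.05 and 0.02 over 15 and 14 measured genes. TH stood at 277 against 300 CPM (ratio 0.92) and at 281 against 225 CPM (ratio 1.25). RGS5, a G protein regulator abundant in the intermediate state, had 3062 against 3154 CPM there and 194 against 147 CPM in the fully resistant library, ratios of 0.97 and 1.32. CTCFL, the testis paralog of CTCF, and NEUROD1, a neurogenic factor, were under 10 CPM in the intermediate library and had ratios of 0.88 (0.74 to 1.04) and 1.07 (0.91 to 1.27) in the fully resistant one. ALK was under 7 CPM in every group, too low to compare. TUBA1A, a neuronal tubulin, had ratios of 1.08 and 1.43 (1.34 to 1.54), and NEFH, a neurofilament, 0.69 in both.

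Of the integrated stress response genes none of 9 was past the fold in the intermediate library and 2 of 10 were, upwards, in the fully resistant one, DDIT3 and DDIT4, where the summed ratio was 1.14 (1.07 to 1.22). The share of all genes past the fold upwards in that library was 1.27%. DDIT3, the stress factor CHOP, was there at 42.1 against 20.3 CPM (ratio 2.08, 1.55 to 2.74), and had a ratio of 1.16 (0.79 to 1.63) in the intermediate one. In the fully resistant library DDIT3 reached the 25 CPM limit only in MYCN-negative cells, the group where it was high. The list had medians of 0.11 and 0.12. GADD45A and MDM2, both targets of p53, went opposite ways in the fully resistant library, with ratios of 1.53 and 0.65, and AEN, a nuclease of the same list named after its value was seen, had 0.60. These made 1 higher and 2 lower of 9 measured p53 targets there and none of 7 in the intermediate library, with medians of -0.07 and 0.11. Among all genes of the fully resistant library 1.27% were higher and 3.18% lower. None of the 46 nuclear oxidative phosphorylation genes was past the fold in either library (medians -0.03 and -0.08), and glycolysis genes had medians of 0.08 in both, with ALDOA at 1.18 and 1.08. The 100 genes most raised over the sensitive library in each resistant state, compared within that state, had medians of 0.03 in the intermediate and -0.03 in the fully resistant library, and the 100 most lowered -0.13 and -0.03.

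The MYCN-negative cells did not form a group of their own. Among the 20 nearest neighbours of a cell in a space of 30 principal components without MYCN, 3.57% were MYCN-negative for a MYCN-negative cell and 1.59% for a MYCN-positive one in the intermediate library, beside 2.40% of all cells. In the fully resistant library the shares were 3.37%, 1.43% and 2.31%. At most 20% and 25% of the neighbours of any MYCN-negative cell were MYCN-negative, and 64 of the 140 and 76 of the 135 had none.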

How the data were processed

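Single-cell RNA of 3 Kelly libraries was captured with 10x Genomics 3' chemistry, version 2, per the labels' protocols. The authors deposited whole-number UMI counts per gene and barcode for 32738 genes, made with bcl2fastq and Cell Ranger on hg19, per the submitters' processing notes; versions and the use of strand are not given in the sources used here. No deposited column was left unused (0). The members and gene lists were chosen with earlier results of these data known.

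Cells with at least 9500 UMIs, at least 500 genes and at most 20% mitochondrially encoded UMIs were kept. MYCN-negative cells (0 MYCN UMIs) and MYCN-positive cells (at least 5) were grouped within each library, each cell was thinned without replacement to 9500 UMIs with a fixed random seed, and the UMIs of a group were summed and scaled to CPM without MYCN. A ratio has an exact conditional Poisson interval and a share a Clopper-Pearson interval, both at 95% and for counting error only. A gene was read as measured at 25 CPM in the higher group and as different at 1.5-fold. A scarce gene could thus be measured only through the group where it was high. The floor is 3 UMIs. With 1 library per state no test was made. Cell cycle phases came from scanpy 1.11.5 with the S and G2 and M lists, intervals from scipy 1.17.1, and neighbours from 30 principal components of 2000 variable genes.

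Named genes were the 12 highest and 12 lowest of each library at 50 CPM (without mitochondrially encoded, ribosomal protein and placeholder-named genes), those past the fold in both libraries at that CPM, up to 4 per gene list, and MYCNOS, DDX1, NBAS, MAX, ALK, CTCFL, RGS5, TH and NEUROD1. The lists of resistance genes were drawn from these same libraries. Doublets were kept and no caller was run; an alternative left out the 5% of cells with most UMIs. The script was tested on simulated counts. Alternatives changed the MYCN limit, thinning, seed, weighting, scaling, filters and CPM minimum. Results for 2 genes are not reported here.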

Additional observations from a re-analysis of the deposited data

Results flagged for a closer look

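The G2 and M phase list lay on opposite sides in the 2 resistant libraries, with a median log2 ratio of MYCN-negative over MYCN-positive cells of 0.60 in the intermediate and -0.29 in the fully resistant library. Of single genes past 1.5-fold both ways, AURKA had ratios of 1.52 and 0.60, CCNA2 1.55 and 0.62, NDC80 1.75 and 0.63, and SGOL2 1.81 and 0.62. With another random thinning NDC80 had 1.45 and 0.86 and SGOL2 2.0 and 0.74, so neither was past the fold both ways. With phase weighting none of the 4 was past it in either library: AURKA had 1.07 and 0.67, CCNA2 1.25 and 0.73, NDC80 1.37 and 0.74, and SGOL2 1.33 and 0.70. They were picked out because the effect ran one way in 1 library and the other way in the other. With 1 library per state the difference between the libraries was not tested.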

How the results depend on the processing

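No paired analysis was possible because each group has 1 library. Leaving out a replicate was not possible for the same reason.

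Of counts of genes past the fold, 36 of 78 recomputed values moved by over 1.5 times. In the intermediate library 92 genes were higher, and 52 against cells with at least 1 MYCN UMI, 45 with phase weighting, 207 without mitochondrial and ribosomal protein genes, 299 at 10 CPM and 34 at 50 CPM. The 68 lower genes became 45 against at least 1 MYCN UMI, 22 with groups from MYCN after thinning, 43 without thinning, 191 without mitochondrial and ribosomal protein genes, 302 at 10 CPM and 11 at 50 CPM. In the fully resistant library the 56 higher genes became 13 with groups after thinning, 37 without thinning, 165 without mitochondrial and ribosomal protein genes, 234 at 10 CPM and 22 at 50 CPM. The 140 lower genes became 17, 88, 251, 533 and 28 under these settings, 73 with phase weighting and 90 when centred. Past the fold upwards in both libraries was 1 gene, and 0 against at least 1 MYCN UMI, with phase weighting or at 50 CPM, 3 against at least 10 MYCN UMIs, 2 with UMI weighting, 13 without mitochondrial and ribosomal protein genes and 18 at 10 CPM. Downwards the 5 genes became 8 against at least 10 MYCN UMIs, 3 with groups after thinning, 2 with phase weighting, 20 without mitochondrial and ribosomal protein genes, 43 at 10 CPM and 1 at 50 CPM. None of the 5 was among the 3 with groups after thinning. A lower CPM minimum tests more genes. Without mitochondrial and ribosomal protein genes CPM was scaled to the remaining genes, so each of these had a higher CPM against the same 25 CPM limit. For the other settings the cause was not tested.

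The G2 and M phase median of 0.60 in the intermediate library was 0.41 against at least 1 and 0.82 against at least 10 MYCN UMIs, 0.96 with groups after thinning and 0.20 with phase weighting. The -0.29 of the fully resistant library was -0.20 and -0.43, -0.0549 and -0.0817 under the same settings, -0.40 without thinning, -0.16 with UMI weighting and -0.22 when centred. The S phase medians were -0.016 and -0.0173 with groups after thinning and -0.0652 and -0.10 with phase weighting; in the fully resistant library they were -0.24 without thinning and -0.27 with UMI weighting. Ribosome biogenesis in the fully resistant library was -0.19 with groups after thinning and -0.20 with phase weighting, and in the intermediate library -0.17 without thinning. Nucleotide and polyamine synthesis was -0.087 and -0.20 under the first 2 of these settings in the fully resistant and -0.0474 without thinning in the intermediate library. MYCN-negative shares were 1.99% and 1.79% at a minimum of 12000 UMIs, and 7.20% and 6.11% when MYCN was counted after thinning.

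Some values changed sign, most of them small. Oxidative phosphorylation in the intermediate library was 0.00098 against at least 10 MYCN UMIs and 0.00866 without thinning, and adrenergic markers there were -0.0700 with groups after thinning. The 100 genes raised in the fully resistant library had 0.0205 with groups after thinning, 0.00946 without mitochondrial and ribosomal protein genes and 0.0311 when centred. CDCA5, past the fold downwards in the fully resistant library, reversed there to a log2 ratio of 0.15 with groups after thinning. Proneural factors in that library had 0.0732 without mitochondrial and ribosomal protein genes and 0.0313 at 10 CPM. Within phases and without the top SST cells, both added after seeing the data, summed log2 ratios changed sign as follows. In S cells the S phase sum was 0.0283 in the intermediate and 0.00557 in the fully resistant library; the latter had 0.0155 for nucleotide synthesis and 0.13 for the G2 and M sum. In G1 cells of the intermediate library the G2 and M sum was -0.31. SST in the fully resistant library was -0.49 in G2M cells and -0.19 without the top cells. Of 64 calls of named genes, 63 kept their direction under 11 settings, and the exception was CDCA5. Most settings used the same cells that chose these genes, so keeping direction says little about how firm the calls were. Depth limited the scarce genes, whose intervals were wide.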
